A study of Rattus norvegicus with 12 samples.

Results

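Ovariectomized (OVX) rats that had eaten blueberry (BB) only early in life were compared with ovariectomized rats that had eaten it until they were killed, by the gene expression of a long bone. The comparison used 6 of the 12 arrays of the series, namely the 3 RNA pools of the STBB OVX group (short-term BB) and the 3 pools of the LTBB OVX group (long-term BB). All 31042 probe sets other than the manufacturer's controls entered, and they gave 14217 named genes. All animals were female Sprague-Dawley rats of age PND 81 (postnatal day 81), operated on at PND 60, 3 weeks before the bone was taken. Both groups ate a diet with 10% BB powder from PND 20. The STBB OVX rats went back to the casein control diet after PND 34, whereas the LTBB OVX rats stayed on BB until PND 81, so that the groups differed in length of feeding and in whether BB was eaten at and after surgery, and these cannot be told apart. The other 6 arrays, 3 of OVX rats and 3 of Sham-operated rats on the casein diet, served as background. Each array held RNA pooled from 2 to 3 rats, and at least 8 rats stood behind a group, so that p-values measure the spread between pools. By its labels the bone was the femur, by the study's methods the right tibia, and both are long bones.

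A long bone is a mixed tissue. Osteoblasts lay down the mineralised matrix, osteocytes lie within it, osteoclasts resorb it, and chondrocytes of the growth plate lengthen the bone as long as the animal grows. The marrow inside makes red and white blood cells through rapid division, and skeletal muscle and tendon insert on the outer surface. Muscle fibres are of fast or slow type, each with its own isoforms of myosin, troponin and calcium pump, so that the isoforms show which kind of fibre RNA a sample holds.

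Values are on the log2 scale and relative. After background adjustment and log2 transformation the authors divided out each array's and each gene's own level, so that 0 is a gene's median over the 12 arrays and 1 unit is a doubling. The values therefore hold differences between pools but no level, and a dim gene cannot be recognised. A difference is always STBB OVX minus LTBB OVX, with its standard error (SE) from a limma fit of the 4 groups, and the 95% interval comes from the same fit. Pool numbers are those of the labels, and they only name the pools.

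No single gene separated the diets at the level of the whole table. With limma and Benjamini-Hochberg adjustment over all genes, 0 of 14217 genes (0%) and 0 of 31042 probe sets (0%) had an adjusted p under 0.05, and the lowest adjusted p was 0.917. At an unadjusted p under 0.05, 320 genes were higher in STBB OVX (2.25%) and 164 were lower (1.15%), 484 genes in all, or 3.40%. Of these 484 genes, 66.1% were higher in STBB OVX, and this share was 54.9% of 1277 genes after a further quantile normalization. The 3 STBB OVX pools all lay above the 3 LTBB OVX pools in 754 genes (5.30%) and all below in 800 genes (5.63%). With 3 pools a group, the smallest two-sided p that exact permutation allows is 0.10.

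For most genes the interval was narrow. In 13355 of the 14217 genes (93.9%) the 95% interval of the difference lay within 0.5 log2 units of 0, and the median SE was 0.0905. Only 42 genes differed by over 1 log2 unit. Of these, 41 were higher in STBB OVX, and 32 of the 42 belonged to the 118 genes of the 7 muscle lists described next.

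Distances between pools of the same diet overlapped those between pools of different diets. Over all genes the root mean square difference was 0.176 to 0.255 log2 units for the 9 pairs of pools across diets, 0.163 to 0.243 for the 3 pairs within LTBB OVX, and 0.164 to 0.182 for the 3 pairs within STBB OVX. Without the muscle lists, these ranges were 0.163 to 0.183 across diets, 0.152 to 0.178 within LTBB OVX and 0.158 to 0.170 within STBB OVX. LTBB OVX pool 3 stood apart from the other pools of its diet in muscle genes, and values of muscle genes without it are given after the muscle lists. The Sham pools stood apart from all 9 OVX pools. Their mean over the cartilage list was between -3.55 and -3.42, and over the fast-fibre list between 2.53 and 3.67, while the OVX pools on the casein diet were at -0.086 to 0.21 and -2.93 to -1.19.

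The genes were grouped in 50 lists by tissue, cell type or pathway. The median difference of a list was above 0 in 34 lists and below 0 in 16, against a median of -0.0033 over all genes. In 40 lists it was smaller than 0.1 log2 units in size. In 9 lists it was above 0.1, and these were the fast-fibre, sarcomere, muscle energy, cartilage, Z-disc, muscle excitation, muscle glycolysis, tendon and neutrophil lists. It was below -0.1 in 1 list, that of the erythroid genes.

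**Figure D1:**
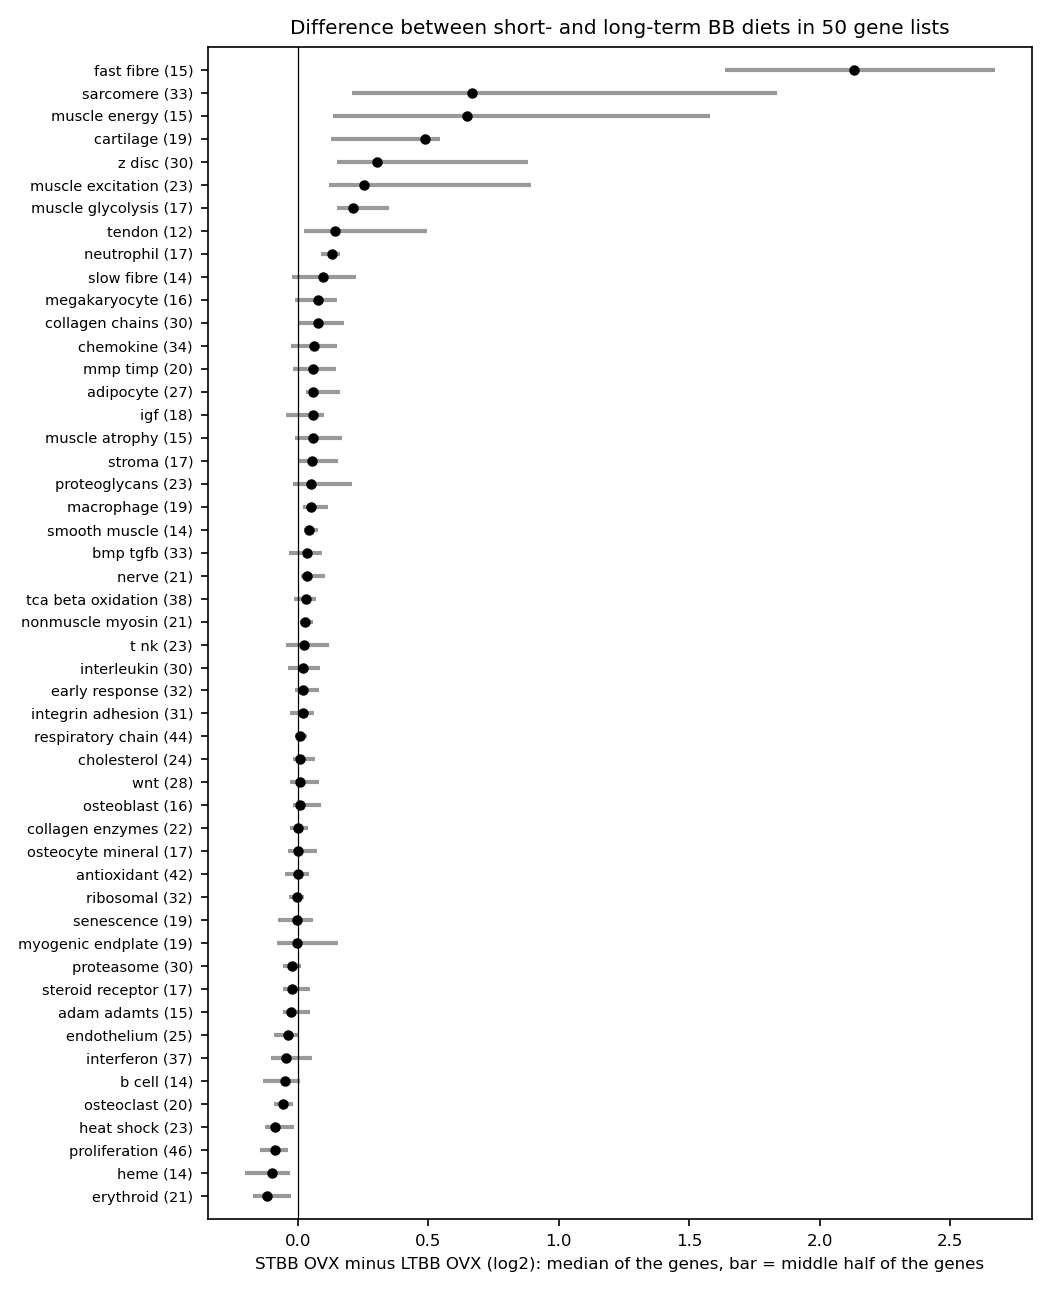
Median difference STBB OVX minus LTBB OVX (log2 units, x axis) of the genes of each of the 50 lists (y axis), with a bar from the lower to the upper quartile of the members. The fast-fibre list lies farthest from 0, with a median of 2.13, followed by the sarcomere and muscle energy lists, while the lists of osteoblasts, osteocytes, ribosomal and respiratory chain genes lie near 0.

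Genes of fast muscle fibres were higher in the STBB OVX pools than in 2 of the 3 LTBB OVX pools. The list holds 15 genes, among them fast myosins, the fast troponins and the calcium pump Atp2a1. Their median difference was 2.13, 14 of the 15 were above 0, and 14 had an unadjusted p under 0.05, against 2.25% of all genes. Only 2 of the 15 had no overlap between the diets, in the direction of STBB OVX, where 5.30% of all genes had none. The mean over the list was -1.90, -3.10 and 0.098 in LTBB OVX pools 1, 2 and 3, and 0.17, 0.18 and 0.70 in the STBB OVX pools. LTBB OVX pools 1 and 2 were thus far below the short-term pools, and pool 3 was beside them. In a whole bone, fewer muscle fibres and less RNA per fibre cannot be told apart.

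The fast regulatory light chain Myl11 showed this order most widely. It measured -2.80, -5.42 and 0.13 in LTBB OVX pools 1 to 3 and 0.064, -0.064 and 0.84 in the STBB OVX pools. LTBB OVX pool 3 lay between the short-term pools, so that the groups overlapped. The difference was 2.97 (SE 1.07, n = 3 pools a group, 95% interval 0.65 to 5.30). Tnnc2, the calcium-binding troponin of fast fibres, measured -2.62, -5.25 and 0.026 against 0.18, -0.026 and 0.51, a difference of 2.83. Myh4, the myosin heavy chain of the fastest fibres, measured -2.85, -5.47 and 0.43 against 0.36, -0.36 and 0.57, a difference of 2.82 (SE 1.22). In both genes LTBB OVX pool 3 was again among the short-term pools. The lowest pool was LTBB OVX pool 2 in 14 of the 15 genes and the highest STBB OVX pool 3 in 13, so the genes of this list repeat 1 order of the pools and are not separate evidence.

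Tpm1 and Atp2a1 were the fast-fibre genes without overlap. Atp2a1, which pumps calcium back into the sarcoplasmic reticulum so that a fast fibre relaxes, measured -1.77, -2.39 and -0.094 in LTBB OVX and 0.15, 0.094 and 0.54 in STBB OVX. All short-term pools lay above all long-term pools, by a small margin over pool 3. The difference of 1.68 (SE 0.55, 95% interval 0.49 to 2.87) is 3.20-fold, and the OVX pools on the casein diet were at -2.64, -1.38 and -3.02. Tpm1, a tropomyosin that lies along the thin filament, measured -0.65, -0.91 and 0.0041 against 0.17, 0.027 and 0.25, a difference of 0.67.

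Myh2, the myosin of oxidative fast fibres, had another order of pools. It measured -0.68, -1.39 and 0.069 in LTBB OVX and -0.069, 3.08 and 2.19 in STBB OVX. Here STBB OVX pool 1 stayed with the long-term pools and the other short-term pools were well above them. The difference was 2.40 (SE 0.61), and without STBB OVX pool 1 it was 3.30, with a limma adjusted p of 0.0489. With all pools it did not pass.

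Slow-fibre genes had another order of pools, which cut across the diets. The list holds 14 genes with a median difference of 0.096. Of these, 10 were above 0, while 0 had an unadjusted p under 0.05 and 0 were without overlap. The mean over the list was -0.39, -0.49 and 1.05 in the LTBB OVX pools and -0.44, 0.97 and 0.20 in the STBB OVX pools. The high pools were LTBB OVX pool 3, highest in 7 of the 14 genes, and STBB OVX pool 2, highest in 6, while STBB OVX pool 1 was lowest in 7. The median was 0.65 without LTBB OVX pool 3, 0.55 without STBB OVX pool 1 and -0.088 without STBB OVX pool 2, so that even its sign depended on single pools.

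Tnnt1, the tropomyosin-binding troponin of slow fibres, measured -0.38, -0.998 and 3.07 in LTBB OVX and -0.93, 2.76 and 0.38 in STBB OVX. One pool of each diet was thus far above the others, and the diets overlapped fully. The difference of 0.18 (SE 0.96) had a 95% interval of -1.90 to 2.25, which is wide and does not show that the diets were alike. Tnnc1, the troponin C shared by slow fibres and heart, measured -0.34, -0.41 and 2.33 against -0.55, 1.73 and 0.30. Myh7, the slow myosin heavy chain, measured -0.47, -1.03 and 1.75 against -1.05, 1.47 and 0.34, a difference of 0.17 (SE 0.65). Myl3 and Tnni1 had the same 2 high pools. The slow calcium pump Atp2a2, which other cell types also use, differed by 0.016 with an interval of -0.18 to 0.21.

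**Figure D2:**
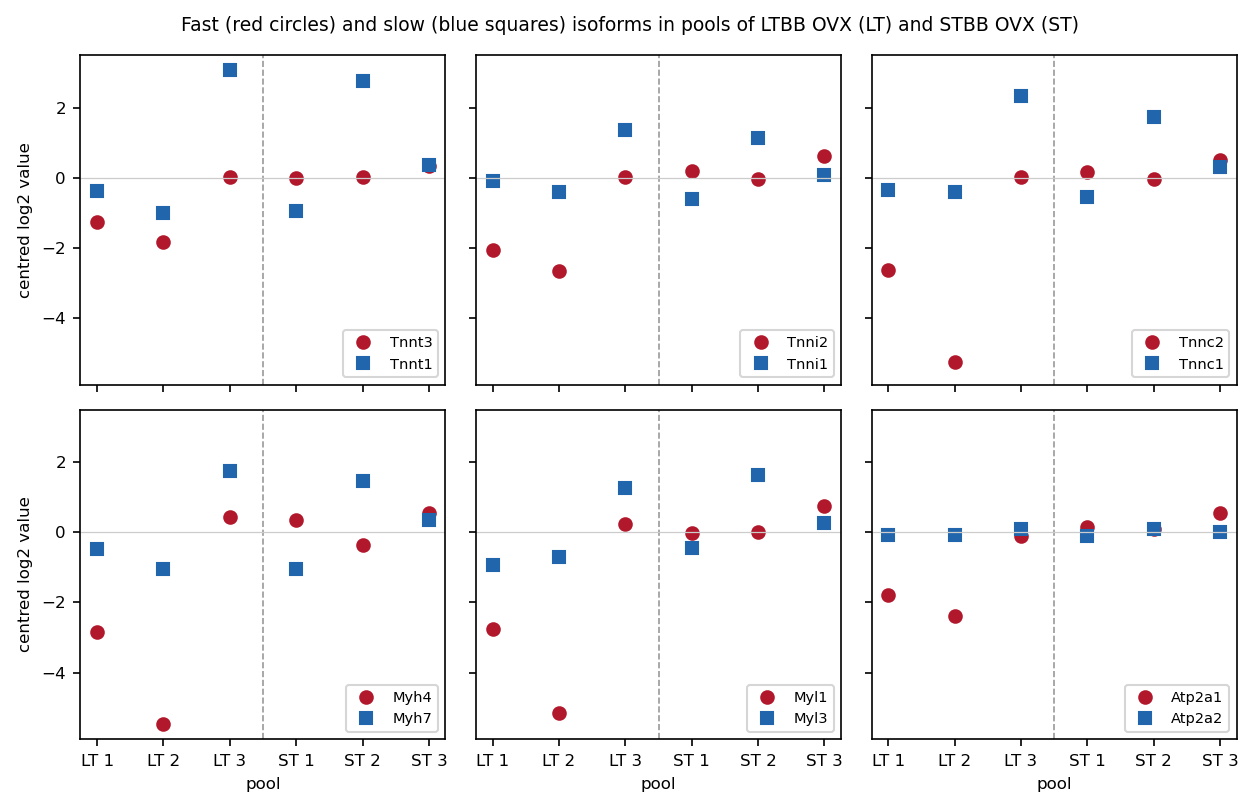
Log2 values (y axis) of 6 pairs of a fast-fibre gene and its slow-fibre counterpart in each LTBB OVX and STBB OVX pool (x axis). The fast genes are low in LTBB OVX pools 1 and 2 and near 0 in the other 4 pools, with the widest range in Tnnc2 and Myh4, while the slow genes Tnnt1, Tnnc1 and Myh7 are high in LTBB OVX pool 3 and STBB OVX pool 2.

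The 5 other lists of contraction and fuel use in muscle had medians above 0. The sarcomere list of 33 genes, which includes members of both fibre lists, had a median difference of 0.67 with 28 genes above 0, and the 13 members in neither fibre list had a median of 0.48. The muscle energy list, with the creatine kinase Ckm and the oxygen store myoglobin (Mb), had a median of 0.65 with 14 of 15 genes above 0. The list of Z-disc and filament anchors had a median of 0.30 (28 of 30 above 0), and the list of excitation and calcium release, with the voltage sensor Cacna1s and its partner subunit Cacng1, a median of 0.25 (22 of 23 above 0). All 17 genes of the muscle glycolysis list were above 0, with a median of 0.21. After a further quantile normalization the medians were 0.56 for excitation, 0.40 for glycolysis, 0.49 for the Z-disc, 0.94 for energy and 0.85 for the sarcomere. That step widens the scale of the values, so these medians are not stronger differences.

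Over the 7 muscle lists together, 109 of the 118 genes were above 0, the median was 0.32, and 48 had an unadjusted p under 0.05 in the direction of STBB OVX and 0 in the other. Of all genes, 2.25% had such a p and were higher in STBB OVX, and 1.15% were lower. Without overlap, 26 genes were above and 2 below, where 5.30% and 5.63% of all genes were. The 5 defining markers of skeletal muscle, Acta1, Ckm, Mb, Tnnt3 and Ryr1, were all higher in STBB OVX, by 1.04 (Ryr1) to 2.70 (Acta1), and 0 of the 5 were without overlap. The bone markers Alpl, Ibsp, Dmp1 and Phex differed by -0.05 to -0.017. The part of the amount of muscle on the bones in these results was not tested.

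Glycolysis genes had small differences and, in many members, no overlap. Of the 17 genes, 10 were without overlap in the direction of STBB OVX, where 5.30% of all genes were, and the list mean was -0.42, -0.56 and -0.07 in LTBB OVX and 0.08, -0.0045 and 0.20 in STBB OVX. Pygm, the muscle phosphorylase that releases glucose units from glycogen, measured -1.18, -1.44 and -0.074 against 0.22, 0.096 and 0.66. The short-term pools were all above the long-term pools, and the difference was 1.22 (SE 0.43). Slc2a4, the insulin-regulated glucose transporter, measured -0.28, -0.26 and -0.20 against 0.098, 0.12 and 0.084, so that here LTBB OVX pool 3 was with its own diet. The difference was 0.35 (SE 0.15). Pfkm, the muscle form of phosphofructokinase, differed by 0.42 and Ldha, lactate dehydrogenase A, by 0.21, both without overlap. Pgam2, the muscle phosphoglycerate mutase, differed by 1.75 and overlapped.

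The size of the muscle differences depended on the long-term pools. Without LTBB OVX pool 3 the median of the fast-fibre list was 2.77 and that of the sarcomere list 1.30, and without LTBB OVX pool 2 the fast-fibre median was 1.34. Leaving out LTBB OVX pool 3 gave medians of 0.96 for muscle energy, 0.48 for the Z-disc, 0.38 for excitation and 0.25 for glycolysis. Without LTBB OVX pool 3, 14 of 15 fast-fibre genes (93.3%) and 15 of 17 glycolysis genes had no overlap, where 9.93% of all genes did in the direction of STBB OVX. Without that pool 8 genes passed the limma test, 7 of them in the muscle lists and all higher in STBB OVX, with adjusted p from 0.00916 to 0.0386. They were Apobec2, Ckmt2, Cox8b, Klhl41, Myot, Pvalb, Tcap and Tnni2. Myot, which crosslinks actin at the Z-disc, had the lowest adjusted p, at a difference of 2.62. Pvalb, the calcium buffer of fast fibres, measured -2.72, -3.88 and 0.11 in LTBB OVX and 0.33, -0.11 and 0.91 in STBB OVX, a difference of 2.54 with all pools and 3.68 without the third long-term pool. The pool was singled out after its values were seen, and with all pools 0 of the 8 passed.

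**Figure D3:**
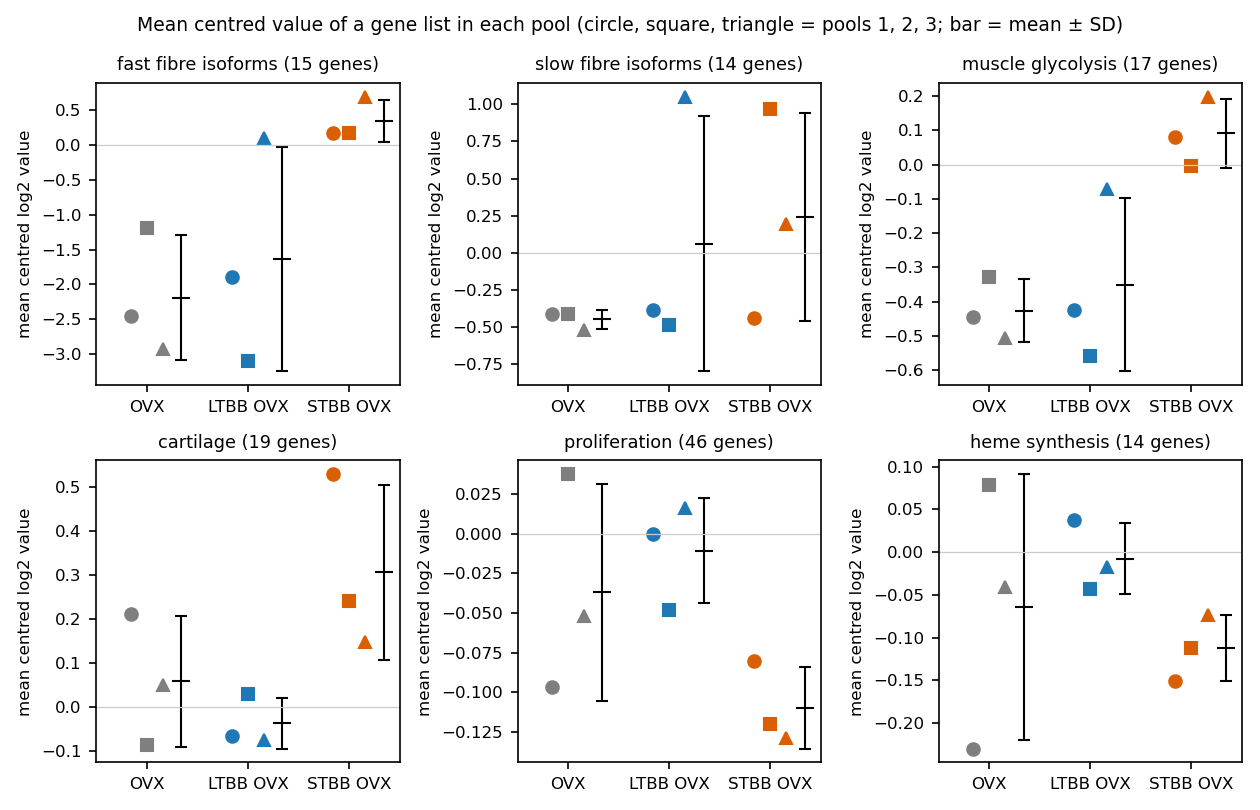
Mean log2 value over the genes of a list (y axis) in each pool of OVX, LTBB OVX and STBB OVX (x axis), for the fast-fibre, slow-fibre, muscle glycolysis, cartilage, proliferation and heme lists. Circle, square and triangle are pools 1, 2 and 3, and the bar is the mean ± SD. LTBB OVX pool 3 lies with the short-term pools in the fast-fibre panel, and STBB OVX pool 1 is highest in the cartilage panel.

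Genes that regulate muscle lay on both sides. The list of 19 muscle-forming and endplate genes had a median of -0.0040, with 8 above 0, 11 below, and 2 without overlap in each direction. Of all genes, 5.30% were above without overlap and 5.63% below. Myf6, a transcription factor of the MyoD family that is kept on in adult fibres, measured -0.64, -0.59 and -0.097 in LTBB OVX and 0.19, 0.097 and 0.64 in STBB OVX, a difference of 0.75 (SE 0.24). Mymk, which lets myoblasts fuse, measured 0.14, -0.082 and 0.017 against -0.18, -0.37 and -0.083, a difference of -0.23 (SE 0.088) with the short-term pools all lower. The list of 15 muscle atrophy genes had a median of 0.056, with 10 above 0, 3 without overlap above and 1 below, which was Mstn (-0.064), the inhibitor of muscle growth. Trim63, a ubiquitin ligase that marks muscle proteins for breakdown, differed by 0.59 and Fbxo32, another such ligase, by 0.17, both without overlap. Myod1, which turns on the muscle programme in myoblasts, differed by 0.16 and overlapped, with an interval of -0.41 to 0.73.

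The 250 bases before the start of 4 genes without overlap are printed to show what the sequence next to 3 of the higher muscle genes and 1 of the lower division genes holds. They come from RefSeq on the GRCr8 build and read 5′ to 3′ toward the start. Capitals mark CANNTG, the E-box letters that factors of the MyoD family bind (in all 4 genes), TATAAA together with the overlapping MEF2 box (in Myf6), and TTTGAA, the core of the cell cycle homology element (in Mki67 and, on the other strand, in Myf6). Atp2a1 is at chr1:190475411-190475660 on the minus strand, Pygm at chr1:213119555-213119804 on the plus strand, Myf6 at chr7:44701314-44701563 on the minus strand and Mki67 at chr1:199952594-199952843 on the minus strand.
Atp2a1: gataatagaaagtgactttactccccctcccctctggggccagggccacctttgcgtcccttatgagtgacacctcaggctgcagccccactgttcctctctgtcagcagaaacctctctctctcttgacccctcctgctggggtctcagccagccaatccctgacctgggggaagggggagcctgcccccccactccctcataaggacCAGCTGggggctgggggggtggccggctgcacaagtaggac
Pygm: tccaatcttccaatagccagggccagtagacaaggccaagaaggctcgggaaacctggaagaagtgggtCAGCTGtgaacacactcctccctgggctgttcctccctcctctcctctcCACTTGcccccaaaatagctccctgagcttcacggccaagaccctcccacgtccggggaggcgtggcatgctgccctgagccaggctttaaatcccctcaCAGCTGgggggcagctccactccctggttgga
Myf6: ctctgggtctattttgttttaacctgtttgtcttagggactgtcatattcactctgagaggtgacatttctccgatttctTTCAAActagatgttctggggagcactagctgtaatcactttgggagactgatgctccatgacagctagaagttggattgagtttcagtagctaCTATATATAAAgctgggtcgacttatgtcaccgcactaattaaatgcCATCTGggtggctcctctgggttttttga
Mki67: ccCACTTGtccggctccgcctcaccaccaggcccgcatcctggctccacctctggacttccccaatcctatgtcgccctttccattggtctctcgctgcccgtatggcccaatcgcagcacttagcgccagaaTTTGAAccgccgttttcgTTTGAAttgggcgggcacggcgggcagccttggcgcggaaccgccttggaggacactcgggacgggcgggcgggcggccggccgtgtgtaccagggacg

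Pygm holds 3 E-box matches, and the other promoters hold 1 each. The letters were searched on both strands, CANNTG being the same on either. Of the 15 genes highest in STBB OVX by the naming rule, 13 have a promoter in the table, and of these 12 (92.3%) hold CANNTG and 6 (46.2%) TATAAA. Among all 11733 measured genes with a promoter the shares were 58.8% and 8.06%. The 6 genes with TATAAA were Cacna1s and Myf6 of muscle, and Cxcl13, Bin2a, Cpa3 and Fcer1a, which are not muscle genes. The muscle genes Atp2a1, Pygm, Ankrd23, Trim54 and Scn4b did not hold it. In the fast-fibre list, 11 of 14 (78.6%) held CANNTG and 5 (35.7%) TATAAA. The MEF2 box, bound by a factor family of muscle and brain, was in 3 of these 14 (21.4%) against 1.61% of all, and it can overlap TATAAA as in Myf6. The slow-fibre list, whose genes cut across the diets, also held these motifs, with CANNTG in 11 of 11, TATAAA in 3 (27.3%) and the MEF2 box in 2 (18.2%). Of 3 other motifs searched, CATTCC was in 3 of the 13 highest genes (23.1%) against 10.4% of all, ACAAAG in 2 (15.4%) against 12.5%, and the CArG box in 0 against 1.24%. In the proliferation list, 13 of 39 (33.3%) held TTTGAA, against 10.9% of all, and that motif was added after the values were seen. It was also in 3 of the 13 highest genes (23.1%) and 6 of 28 sarcomere genes (21.4%), but in 1 of 14 fast-fibre genes (7.14%). A match is a description of the letters and not evidence of binding.

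Cartilage genes were higher in the STBB OVX pools, by less than the muscle genes but with less overlap. The list holds 19 genes of the growth plate and other cartilage, from collagens and proteoglycans to receptors. The median difference was 0.49, 17 of 19 were above 0, 9 had an unadjusted p under 0.05, and 11 were without overlap in the direction of STBB OVX against 5.30% of all genes. The mean over the list was -0.066, 0.03 and -0.074 in the LTBB OVX pools and 0.53, 0.24 and 0.15 in the STBB OVX pools, and the OVX pools on the casein diet were at 0.21, -0.086 and 0.051. The 3 short-term pools were thus above the long-term pools, and the first and second of them were above all OVX pools. STBB OVX pool 1 was the highest of the 6 pools in 16 of the 19 genes. Without that pool the median was 0.22. After a further quantile normalization of all 12 arrays it was 0.98, a value on the wider scale of that step. When any 1 pool was left out, 11 to 14 of the 19 genes were without overlap in that direction. The share of all genes was then 8.6% to 12.2%.

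Cnmd, a membrane protein of avascular cartilage that inhibits vessel growth, had the lowest p of the list. It measured -0.28, -0.022 and -0.13 in LTBB OVX and 0.89, 0.49 and 0.31 in STBB OVX. The diets were clear of each other, and the difference was 0.71 (SE 0.13, 95% interval 0.42 to 0.995), a 1.63-fold difference with a limma adjusted p of 0.917. Snorc, a small transmembrane proteoglycan of chondrocytes, measured -0.042, 0.018 and -0.018 against 0.88, 0.56 and 0.39, a difference of 0.62. Comp, a pentameric matrix protein that binds collagen, differed by 0.60 (SE 0.16).

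The 3 chains of collagen IX, which decorates the surface of cartilage fibrils, lay close together. Col9a1 measured -0.27, 0.023 and -0.023 in LTBB OVX and 0.83, 0.35 and 0.34 in STBB OVX. Its difference was 0.60, that of Col9a2 was 0.54 and that of Col9a3 0.49, all without overlap and each highest in STBB OVX pool 1. Acan, the large aggregating proteoglycan that holds water in cartilage, measured -0.14, 0.14 and -0.27 against 0.68, 0.47 and 0.24, a difference of 0.55 (SE 0.16). Hapln1, the link protein that ties aggrecan to hyaluronan, measured -0.096, 0.069 and -0.0049 against 1.02, 0.19 and 0.33, a difference of 0.52. The short-term pools were above the long-term pools in each of these genes.

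The main fibril collagen of cartilage and the marker of enlarged chondrocytes differed less. Col2a1 measured -0.062, 0.11 and 0.13 in LTBB OVX and 0.26, 0.32 and 0.07 in STBB OVX. The groups overlapped, and the difference was 0.16 (SE 0.096, 95% interval -0.048 to 0.37). Col10a1, made by hypertrophic chondrocytes, differed by 0.27 with an interval of -0.21 to 0.74, and Fgfr3, a receptor that restrains chondrocyte division, by 0.22. Ihh, the signal from chondrocytes that have left the dividing zone, measured -0.024, 0.065 and -0.35 against 0.74, 0.21 and 0.21, a difference of 0.49 (SE 0.21) without overlap. Sox6, a transcription factor that chondrocytes share with red cell precursors, differed by -0.035 and Matn1 by 0.025. The members of the list were thus not all on one side to the same extent.

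**Figure D4:**
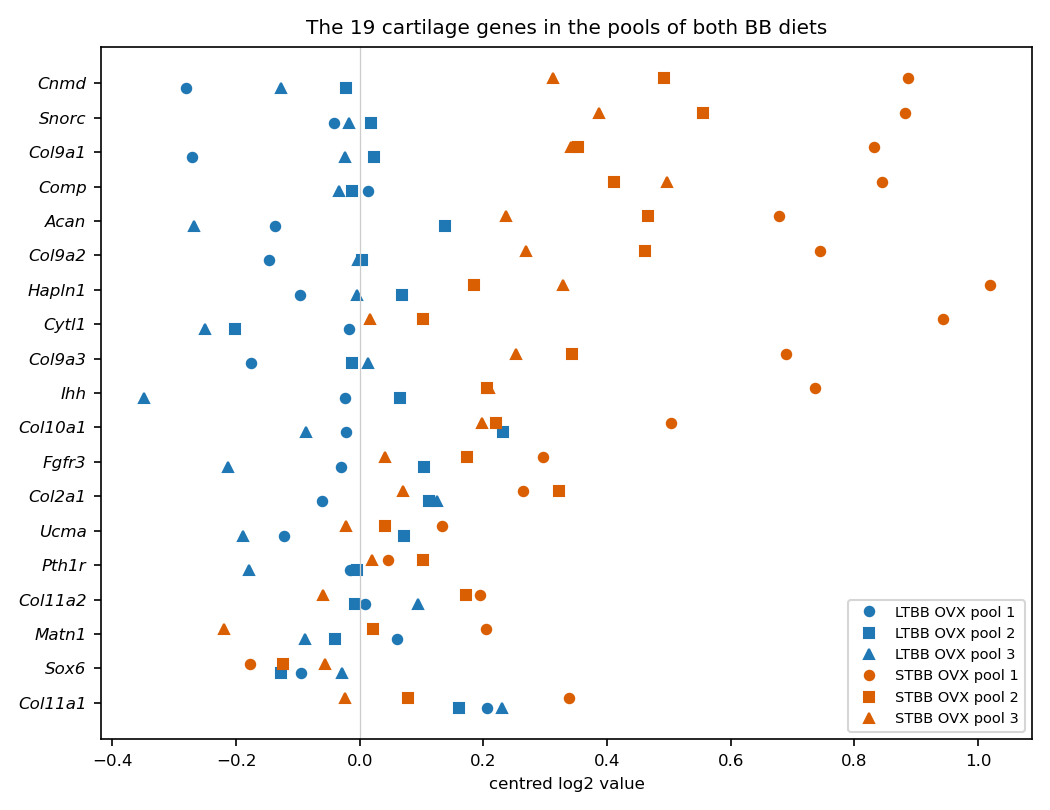
Log2 values (x axis) of the 19 cartilage genes (rows) in the 3 LTBB OVX and 3 STBB OVX pools. The marker shape shows the pool and the colour shows the diet. Cnmd, Snorc, Col9a1, Comp and Acan are above 0.2 in all STBB OVX pools and below 0.15 in all LTBB OVX pools, while Sox6 and Matn1 show no such step.

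Of genes outside the list that chondrocytes are known to express, 3 are given for their high values, which is a choice made after those were seen. Scrg1, a small secreted protein first found in scrapie brain and also made by chondrocytes, measured -0.052, -0.016 and -0.0047 in LTBB OVX and 1.27, 0.64 and 0.49 in STBB OVX, a difference of 0.83 (SE 0.18). S100b, a calcium-binding protein of Schwann cells and chondrocytes, measured 0.078, 0.14 and -0.40 against 0.76, 0.45 and 0.59, a difference of 0.66. Cdkn1c, an inhibitor of the cell cycle that acts as chondrocytes stop dividing, measured -0.028, 0.028 and -0.042 against 0.70, 0.36 and 0.32, a difference of 0.47. None of the long-term pools reached the lowest short-term pool in these genes.

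Small proteoglycans of the matrix were partly on the same side. Fmod, a keratan sulfate proteoglycan that binds collagen fibrils, differed by 0.64 and Prelp, which anchors basement membranes to collagen, by 0.45, both without overlap. Chad, a leucine-rich protein of cartilage, differed by 0.68 and overlapped at 1 pool. The list of 23 proteoglycans had a median of 0.05, with 16 above 0 and 6 without overlap in that direction. For this list and the collagens that follow, 5.30% of all genes were above without overlap and 5.63% below. Of the 30 collagen chains 22 were above 0, with a median of 0.08 and 7 without overlap in the direction of STBB OVX and 0 in the other. The 23 chains outside the cartilage list had a median of 0.06 and 4 without overlap, among them Col27a1 (0.40) of cartilage and Col8a2 (0.41) of basement membranes. The 12 genes of the tendon list had a median of 0.14, and Dpt, dermatopontin, a small protein of the collagen matrix, measured -0.62, -0.64 and -0.13 against 0.067, 0.15 and 0.49, a difference of 0.70 (SE 0.16) without overlap.

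For the collagens of bone itself no difference was detectable at this precision. Col1a1 and Col1a2, which form the type I fibrils of bone, differed by -0.0038 (95% interval -0.15 to 0.14) and -0.016 (-0.16 to 0.13). The 22 enzymes that modify and crosslink collagen had a median of 0.0016, and for 21 of them the interval lay within 0.5 log2 units of 0.

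Single regulators of bone and cartilage signals were higher in STBB OVX. Fst, follistatin, which binds activins and myostatin, measured -0.068, -0.18 and -0.16 in LTBB OVX and 0.18, 0.21 and 0.33 in STBB OVX. The gap between the diets was wider than the spread within either, and the difference was 0.38 (SE 0.072). The OVX pools on the casein diet, at 0.13, 0.26 and 0.19, were with the short-term pools. Kremen1, a co-receptor of the Wnt inhibitor Dkk1, measured -0.19, -0.12 and -0.051 against 0.14, 0.34 and 0.061, a difference of 0.30. Tnfrsf11b, osteoprotegerin, the decoy receptor that keeps the osteoclast signal RANKL from its receptor, measured -0.22, 0.03 and 0.097 against 0.92, 0.15 and 0.34, a difference of 0.50 (SE 0.17) that was 0.28 without STBB OVX pool 1. The 33 genes of BMP and TGF-beta signalling had a median of 0.04, with 21 above 0, and the 28 Wnt genes a median of 0.0069, with 15 above 0. In each of these lists 3 genes had no overlap above and 0 below, where 5.30% and 5.63% of all genes had none.

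Genes of cell division were slightly lower in the STBB OVX pools. In the proliferation list of 46 genes the median difference was -0.09, 41 genes were below 0, and 17 were without overlap in that direction, against 5.63% of all genes, while 0 were so in the other. An unadjusted p under 0.05 was reached by 4 genes. The mean over the list was -0.00034, -0.048 and 0.016 in LTBB OVX and -0.08, -0.12 and -0.13 in STBB OVX, and the OVX pools on the casein diet, at -0.097, 0.038 and -0.052, spanned the long-term pools and reached below the first short-term pool. STBB OVX pool 2 was lowest in 17 genes and pool 3 in 14, and leaving out any 1 pool left 17 to 24 of the 46 genes below without overlap, and 9.75% to 12.2% of all genes.

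Mki67, a protein of the chromosome surface that only dividing cells hold, measured 0.073, -0.027 and 0.027 in LTBB OVX and -0.27, -0.25 and -0.35 in STBB OVX. All short-term pools were lower, and the difference was -0.31 (SE 0.11, 95% interval -0.55 to -0.078), or 0.804-fold. Among the OVX pools on the casein diet Mki67 was at -0.37, 0.061 and -0.17, a wider range than within either BB diet. Uhrf1, which copies DNA methylation after replication, measured 0.078, -0.078 and 0.078 against -0.12, -0.34 and -0.27, a difference of -0.27. The cyclins Ccna2 and Ccne1, which drive DNA replication, differed by -0.25 and -0.24, and Mcm6, a subunit of the replicative helicase, by -0.20, all without overlap. Pbk, a mitotic kinase, and Ska1, which ties chromosomes to the spindle, were among the 15 lowest genes of the table, both at -0.33.

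Genes of red cell formation lay on the same side by their medians. The 14 heme genes had a median of -0.10, with 3 above 0 and 6 below without overlap, and the 21 erythroid genes a median of -0.12, with 4 above 0 and 3 below without overlap. Of all genes 5.63% were below without overlap. In the erythroid list the pool means were 0.049, -0.01 and -0.12 in LTBB OVX and -0.19, -0.087 and -0.11 in STBB OVX. LTBB OVX pool 3 was thus among the short-term pools. In the heme list they were 0.038, -0.043 and -0.017 against -0.15, -0.11 and -0.074. The OVX pools on the casein diet were at -0.16, 0.0074 and -0.029 for erythroid and -0.23, 0.079 and -0.041 for heme genes. The erythroid list had a median of -0.058 without LTBB OVX pool 1, -0.066 without STBB OVX pool 1, -0.071 without LTBB OVX pool 2 and -0.18 without LTBB OVX pool 3. After a further quantile normalization the medians were -0.25 for heme, -0.30 for erythroid and -0.18 for proliferation genes, on the wider scale of that step. Of both lists 0 genes had an unadjusted p under 0.05. Fech, which puts iron into heme, measured 0.028, 0.049 and -0.028 in LTBB OVX and -0.31, -0.12 and -0.13 in STBB OVX. The diets were clear of each other at a difference of -0.21 (SE 0.11, 95% interval -0.45 to 0.034). Slc25a37, the mitochondrial iron importer, differed by -0.26 and Klf1, the transcription factor of red cell genes, by -0.27, both without overlap. Alas2, the first enzyme of heme synthesis in red cells, differed by -0.25 and overlapped. Xk, a membrane protein of red cells, measured 0.11, 0.025 and 0.051 against -0.15, -0.51 and -0.23, a difference of -0.36, and was among the 15 lowest genes of the table. In the heat shock and protein folding list of 23 genes, 18 were below 0 with a median of -0.09, led by Asns (-0.26), which makes asparagine when amino acids are short. Among white blood cells, 15 of 17 neutrophil genes were above 0, with a median of 0.13 that was 0.045 without LTBB OVX pool 3. Of these genes 2 were above without overlap, as were 5.30% of all genes. The part of the share of marrow in these results was not tested.

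For genes of osteoblasts and osteocytes no difference between the diets was detectable at this precision. The 16 osteoblast genes ranged from -0.07 to 0.21 with a median of 0.01, and in 15 of them the 95% interval lay within 0.5 log2 units of 0. The 17 genes of osteocytes and mineralisation ranged from -0.11 to 0.12 with a median of -0.00041, and all 17 intervals lay within 0.5. Ibsp, bone sialoprotein, measured 0.042, 0.0087 and 0.08 in LTBB OVX and 0.0037, 0.015 and -0.0037 in STBB OVX, a difference of -0.039 with an interval of -0.16 to 0.086. Dmp1, a matrix protein of osteocytes, differed by -0.017. The 20 osteoclast genes had a median of -0.06, with 3 above 0 and 17 below. Without overlap 1 was above, Tnfrsf11b, given earlier, and 1 below, where 5.30% and 5.63% of all genes were. Without LTBB OVX pool 3, 7 of the 20 (35.0%) were below without overlap, against 11.1% of all genes. When another of the 6 pools was left out, 1 to 4 were. The resorption enzymes Acp5 and Ctsk differed by -0.036 (-0.25 to 0.18) and -0.012 (-0.35 to 0.32).

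Of the genes that the study also measured by RT-PCR, Myh2 and Myh4 are given above. Alpl, the alkaline phosphatase of osteoblasts, measured 0.025, 0.22 and -0.073 in LTBB OVX and 0.026, 0.15 and -0.06 in STBB OVX, a difference of -0.021 (95% interval -0.25 to 0.21). Bglap, osteocalcin, measured 0.049, 0.027 and -0.041 against 0.034, 0.028 and -0.021, a difference of 0.0019 (-0.23 to 0.23). The pools of both diets overlapped in both genes. Myh1 differed by -0.027, the embryonic Myh3 by 0.21 and the cardiac Myh6 by -0.059, each with an interval that includes 0. Runx2 was not analysed here.

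Several groups with a bearing on the study had medians near 0. The 21 myosins and partners of non-muscle cells had a median of 0.03, with 16 above 0 and 5 below. All 21 intervals lay within 0.5 log2 units of 0, as did 93.9% over all genes. The 19 genes of senescence had a median of -0.0027, and 17 intervals lay within 0.5. Apart from Cdkn1c, given above, 1 gene was without overlap, Lmnb1 of the nuclear lamina at -0.10. Among the 42 antioxidant genes, with a median of -0.0011, 37 intervals lay within 0.5. Without overlap 1 of them was above and 4 were below, where 5.30% and 5.63% of all genes were. All 44 intervals of the respiratory chain and all 32 intervals of the ribosomal proteins lay within 0.5.

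Single genes outside these groups were taken by a rule, as the 15 highest and 15 lowest among the 352 genes with an unadjusted p under 0.05 and no overlap (221 higher and 131 lower). Of the 15 highest, Atp2a1, Ankrd23, Pygm, Trim54, Cacng1, Pdlim3, Scn4b, Cacna1s and Myf6 are genes of muscle. Ankrd23, a titin-binding protein that responds to stretch, measured -1.62, -1.68 and -0.043 in LTBB OVX and 0.043, 0.10 and 0.52 in STBB OVX, a difference of 1.34. Trim54, which lies along the sarcomere and microtubules, differed by 1.17, and Cacng1 by 1.002. The margin over LTBB OVX pool 3 was small in Ankrd23, as in Atp2a1.

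Cxcl13, the chemokine that draws B cells, measured -0.59, -0.13 and -0.23 in LTBB OVX and -0.058, 1.47 and 1.88 in STBB OVX. The high values were those of STBB OVX pools 2 and 3, and the difference was 1.41 (SE 0.45). The OVX pools on the casein diet were at 0.17, 0.91 and -0.23. The list of 34 chemokines and receptors had a median of 0.06, with 5 without overlap above and 2 below, where 5.30% and 5.63% of all genes were. Bin2a measured -0.079, -0.29 and -0.77 against 0.88, 0.42 and 0.16, a difference of 0.87 (SE 0.18).

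Of the 15 highest genes, 3 are of mast cells, the tissue cells that store histamine and proteases. Cpa3, their granule carboxypeptidase, measured -0.15, -0.45 and -0.32 in LTBB OVX and 0.19, 0.15 and 1.15 in STBB OVX. Cma1, a chymase, measured -0.091, -0.40 and -0.53 against 0.21, 0.091 and 1.13. Fcer1a, the IgE-binding chain of their surface receptor, measured -0.37, -0.91 and -0.40 against -0.035, 0.041 and 0.86. STBB OVX pool 3 was the highest pool in all 3 genes, and the differences were 0.80, 0.82 and 0.85. For Cpa3 the OVX pools on the casein diet, at 0.28 to 0.42, lay between that pool and the other short-term pools. Relative to these OVX pools, the short-term differences of Cpa3, Cma1 and Fcer1a were 0.16, 0.22 and 0.032. Their long-term differences were -0.64, -0.59 and -0.81. In these genes the long-term pools were thus further from OVX than the short-term pools.

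The 15 lowest genes had smaller differences and no common theme was tested. Lurap1l measured 0.19, 0.14 and 0.85 in LTBB OVX and 0.10, -0.24 and -0.096 in STBB OVX, a difference of -0.47 that was -0.24 without LTBB OVX pool 3. Lgalsl, a protein related to galectins, measured 0.12, 0.033 and 0.19 against -0.16, -0.55 and -0.27, a difference of -0.44 (SE 0.091). Tbccd1, of the centrosome, differed by -0.43, and Terf1, which binds telomere repeats, by -0.41. Ngfr, the low-affinity receptor of nerve growth factor, measured 0.19, 0.21 and 0.086 against -0.16, -0.08 and -0.31, a difference of -0.34 (SE 0.09). The rule required a gap between the pools of the diets, so the gap in these genes is not evidence for them. The highest gene just outside the rule's 15 was Cnmd at 0.71 and the lowest RT1-CE10 at -0.32.

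**Figure D5:**
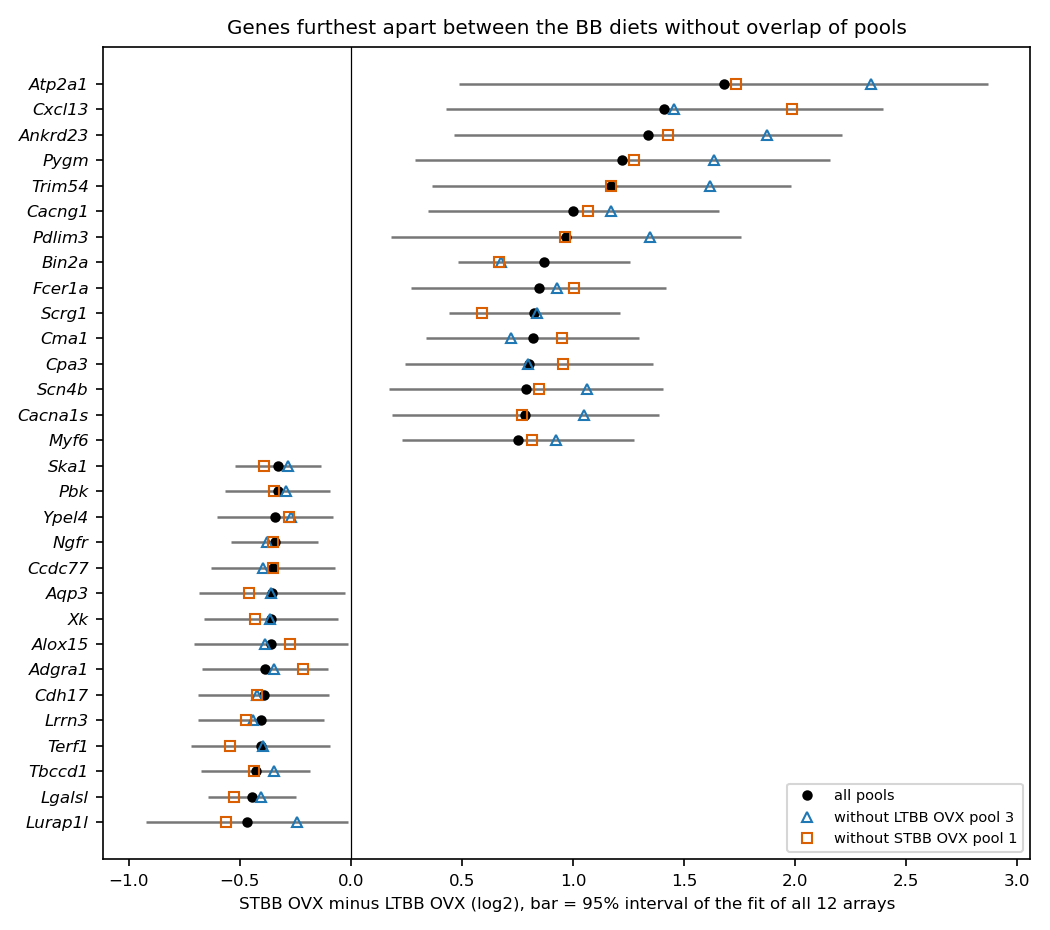
Difference STBB OVX minus LTBB OVX in log2 units (x axis) for the 15 highest and 15 lowest genes of the rule (y axis), with the 95% interval from limma, and the same difference without LTBB OVX pool 3 and without STBB OVX pool 1. Muscle genes such as Atp2a1 (1.68) are farther from 0 without LTBB OVX pool 3 (2.34), while Scrg1 (0.83) is nearer to 0 without STBB OVX pool 1 (0.59).

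Set beside the OVX rats on the casein diet, the diets were on different sides in some of these groups and on the same side in the fast-fibre list. The comparisons with OVX share the 3 OVX pools, so their values are given side by side and not tested against each other. Relative to OVX, the median of the fast-fibre list was 2.603 for the short-term pools and 0.55 for the long-term pools. For Myl11 these values were 3.61 and 0.64. The median of the cartilage list was 0.25 for the short-term pools and -0.081 for the long-term pools, and Cnmd was at 0.39 and -0.32. For Fst they were 0.047 and -0.33 (SE 0.072 each), and for Mki67 -0.13 and 0.18 (SE 0.11 each). The short-term value of Fst was thus smaller than its SE.

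Between Sham and OVX pools the same genes differed far more. OVX minus Sham was -5.71 for Atp2a1, 7.02 for Cnmd and -2.12 for Mki67, in a contrast that shares no array with the comparison of the diets. Of the 754 genes with all short-term pools above, OVX was below Sham in 49.2%, and of the 800 with all below in 54.25%, against 49.43% of all genes.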

How the data were processed

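RNA of 12 pools of rat long bone was measured on Affymetrix rat expression arrays, 3 pools each of Sham, OVX, LTBB OVX and STBB OVX. Per the methods and the submitters' processing notes, the authors took the arrays through GCOS and RMA (background adjustment, normalization and log2 transformation) and then normalized per chip and per gene in GeneSpring. The deposited values are log2 values with each probe set's median over the 12 arrays at 0, so levels and a filter on dim probe sets cannot be had, and no depth applies to arrays. The number of pools limits the precision.

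Of 31099 probe sets, 57 were controls and 31042 were tested. Of these, 20826 carry 1 gene symbol in the platform annotation, 436 several and 9780 none, and 20758 symbols were updated by gene ID. The probe sets of a gene were averaged (14217 genes, 4525 with several probe sets). The methods give an analysis of variance with a post hoc test for the study's data and do not say which test the arrays had, so limma 3.58.1 in R 4.3.3 was fitted with 4 group means over all 12 arrays, with the contrast STBB OVX minus LTBB OVX and Benjamini-Hochberg adjustment at 0.05 over all genes. The code was tested on simulated data. A gene has no overlap if all 3 pools of one diet lie above all 3 of the other.

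The groups come from the labels. The gene lists, the naming rule and the comparison were chosen with earlier results of these data known. Genes were named as the 15 highest and 15 lowest with an unadjusted p under 0.05 and no overlap, up to 4 members with the largest differences in each of 50 lists, the genes the study measured by RT-PCR, and genes called in any fit without 1 pool. Other members of the lists were named for their role, after their values were seen. Promoters are RefSeq's, on GRCr8, and the first listed start of a gene was used. The E-box, TATA box and MEF2 box were chosen for muscle genes, and the cell cycle motif was added after the values were seen. Alternatives were another normalization, centring, other sets of arrays, array weights, other variance settings, a replicate block, other ways to join probe sets, and leaving out each pool.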

Additional observations from a re-analysis of the deposited data

How the results depend on the processing

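The count of 0 called genes held under 9 arrays of OVX rats, the 6 arrays of the BB diets, array weights, unmoderated or robust variances, median centring, 1 probe set per gene, the most variable probe set per gene, and a threshold of 0.10. After a further quantile normalization 10 genes were called, and when 1 pool was left out 0 to 8 genes and 0 to 13 probe sets, the highest without LTBB OVX pool 3. At an unadjusted p under 0.05 there were 484 genes, 1277 after a further quantile normalization, 761 with 9 arrays, 866 with 6 arrays, 977 with array weights, and 363 to 689 without 1 pool. Genes without overlap numbered 1554, and 2608 to 3473 without 1 pool, where fewer pools make a gap easier.

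Of 1012 values for 46 genes under the alternatives, 986 had the direction and side of the threshold of the main value, 11 passed the threshold and 15 turned direction. Genes named for having no overlap keep their direction whenever 1 pool is left out. Leaving out a Sham pool or an OVX pool on the casein diet does not change the difference. This count is therefore in large part fixed in advance and is not evidence for the genes. The turned values included those of Myh1, Myh7, Alpl and Bglap, whose main differences were smaller than their SE. When 1 pool was left out, Myh1 ranged from -0.14 to 0.072, Myh7 from -0.44 to 1.01, Alpl from -0.087 to 0.061 and Bglap from -0.025 to 0.020. With quantile normalization Myh7 was at -0.19 and Bglap at -0.0063, with 1 probe set per gene Myh7 was at -0.15, and with array weights Bglap was at -0.0093. The cause was not tested. Of 500 medians for 50 lists, 461 moved by less than the spread between pools and 39 by more.

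The labels do not say that pool numbers pair the samples, and the BB diets were not treated as paired. Deviations of same-numbered pools from their group means correlated at -0.376 to 0.232 over 18 pairs. The 6 pairs over 0.1 were all those of Sham with a BB diet, and the 3 pairs of the BB diets with each other were at 0.047 to 0.086. With the replicate block 0 genes were called and 481 had an unadjusted p under 0.05.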

Other observations

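Mast cell genes were looked at more widely because 3 of them were among the 15 highest genes, so the values that follow were chosen after the data were seen and carry no test. Of 14 such genes 12 were higher in STBB OVX, with a median difference of 0.51. After a further quantile normalization it was 1.06, a value on the wider scale of that step. In that direction 8 had no overlap, the 3 that led to the choice among them, and 0 in the other, where 5.30% and 5.63% of all genes had none. The 14 genes included the protease Mcpt10 (0.55), the IgE receptor chain Ms4a2 (0.32) and the growth factor receptor Kit (0.23), all without overlap. The tryptase Tpsab1 (0.67) and the protease Mcpt1l1 (0.57) were also higher but overlapped. Fcer1g, which other blood cells share, differed by -0.012 and Mcpt4 by -0.055. In 13 of the 14 genes STBB OVX pool 3 was the highest of the 6 pools, and without it the median was 0.25.

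Klkb1, plasma prekallikrein of the contact system of coagulation, was the 1 gene lower in STBB OVX by over 1 log2 unit. It was outside the naming rule because its pools overlapped. It measured 1.81, 0.61 and 0.28 in LTBB OVX and -0.92, -1.04 and 0.70 in STBB OVX, a difference of -1.32 (SE 0.46).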
